A study of Mus musculus with 2 samples.

Results

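Cycling T cells were the few splenic T cells with RNA of genes that cells express while they copy DNA or divide. They were chosen by measured values: a T cell was a member if at least 2 of the 6 proliferation genes Mki67, Top2a, Birc5, Pclaf, Ube2c and Ccna2 each had 1 or more molecules and Cd79a, a B cell receptor subunit gene, had none. Of 15278 T cells, 164 met this rule, which is 1.07%. The words cycling and in cycle below mean only that a cell met it. A T cell here was a cell with at least 200 genes, under 25% mitochondrial molecules and at least 1 molecule of Cd3d, Cd3e or Cd3g, the CD3 chains of the T cell receptor complex. The mice were female C57BL/6 (strain label C57/BL6N), with no genotype difference between groups, and the labels give no age. The 3 groups were control mice injected with saline (labelled 0 h), mice studied 4 h after 6 mg/kg remimazolam, and mice studied 8 h after the same dose. Remimazolam is a short-acting benzodiazepine sedative, named in the series title as an agonist of the GABA(A) receptor. All cells from a group's 3 mice carried 1 oligonucleotide sample tag in common, and the labels describe the sorted cells as CD45+CD3+CD5+ in one place and only as CD45+ in another. The 3 pools were loaded on 1 BD Rhapsody capture and read as RNA molecules per gene and cell. Each treatment is therefore 1 pool with no replicate, no p-value is given, and every interval below is a 95% interval that covers counting error only. How many cells each mouse gave is unknown, and pool and treatment cannot be told apart.

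A T cell that receives antigen and costimulation, or homeostatic cytokine signals, leaves a resting state held by factors such as FOXO1, KLF2 and the BTG proteins. D-type cyclins with CDK4 or CDK6 and then cyclin E with CDK2 inactivate the retinoblastoma family, which frees E2F factors to switch on the replication genes of S phase. Cyclin A2 and cyclin B with CDK1 then drive G2 and mitosis, and the anaphase-promoting complex, loaded by CDC20 and the ubiquitin-conjugating enzyme UBE2C, ends it. In the spleen of an unimmunised mouse most T cells rest, and regulatory T cells and memory cells are known to turn over faster than naive cells.

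The promoters of the genes that mark these cells carry short elements known from cell cycle control: CCAAT boxes bound by NF-Y, the CHR element TTTGAA bound by the MuvB complexes, and the E2F elements TTTCCCGC and TTTGGCGC. The stretches below are the 120 bases before the RefSeq start of 4 genes of the G2/M programme and 2 of the S-phase programme. No phase class below uses these sequences. All are written 5′ to 3′ in the direction of the gene, from RefSeq on GRCm38.p6, and capitals mark every match to those elements, with the reverse complement of an element counted as a match on the other strand. Ube2c lies on the plus strand at chr2:164769809-164769928, Cdc20, the activator of the anaphase-promoting complex, on the minus strand at chr4:118437344-118437463, Ccnb2, cyclin B2, on the minus strand at chr9:70421555-70421674, and Cdk1, the mitotic kinase, on the minus strand at chr10:69352913-69353032. Mcm6, a subunit of the replicative helicase, lies on the minus strand at chr1:128359706-128359825, and Hells, a chromatin remodelling helicase, on the plus strand at chr19:38930870-38930989.
Ube2c: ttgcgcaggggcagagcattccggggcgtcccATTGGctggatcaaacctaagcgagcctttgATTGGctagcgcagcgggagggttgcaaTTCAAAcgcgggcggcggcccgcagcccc
Cdc20: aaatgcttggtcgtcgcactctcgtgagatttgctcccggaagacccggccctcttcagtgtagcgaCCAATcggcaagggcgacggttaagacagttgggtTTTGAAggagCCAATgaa
Ccnb2: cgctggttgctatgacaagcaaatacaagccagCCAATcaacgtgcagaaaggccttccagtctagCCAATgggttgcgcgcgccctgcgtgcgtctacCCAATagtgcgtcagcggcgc
Cdk1: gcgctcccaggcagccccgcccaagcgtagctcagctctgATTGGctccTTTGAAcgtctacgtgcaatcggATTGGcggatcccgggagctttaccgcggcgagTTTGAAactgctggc
Mcm6: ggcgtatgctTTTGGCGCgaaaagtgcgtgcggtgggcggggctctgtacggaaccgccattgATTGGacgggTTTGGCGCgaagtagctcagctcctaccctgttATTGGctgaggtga
Hells: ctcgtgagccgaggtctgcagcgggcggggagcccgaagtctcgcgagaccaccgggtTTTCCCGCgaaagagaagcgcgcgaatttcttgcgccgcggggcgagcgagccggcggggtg

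Over the 250 bases before the start, with both strands searched, a CCAAT box stood in 34 of the 46 G2/M genes found in RefSeq (73.9%), in 25 of the 42 S-phase genes found (59.5%) and in 34.5% of all 27025 mouse promoters. At least 2 CCAAT boxes stood in 50% of the G2/M promoters, 35.7% of the S-phase promoters and 10.5% of all. TTTGAA stood in 28.3% of G2/M, 16.7% of S-phase and 16.3% of all promoters. The E2F elements were the mirror case, in 21.4% of S-phase promoters, 4.35% of G2/M promoters and 1.35% of all. The forkhead element GTAAACA stood in 6.52% of G2/M, 2.38% of S-phase and 3.09% of all promoters. Of the 5 rule genes found in RefSeq, 4 had a CCAAT box, 3 had TTTGAA and 0 had either E2F element. These are matches of letters, not evidence that a factor was bound in these cells.

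The label fits the values that chose the cells, which are given as a description only. Mki67, a nuclear antigen of dividing cells, was detected in 92.1% of the cycling T cells and stood at 1455, 1291 and 1039 counts scaled to a common total (CPM, customary for RNA-seq) in the saline, 4 h and 8 h pools. Top2a, the DNA topoisomerase that untangles sister chromatids, was detected in 85.4% and stood at 1786, 1437 and 1784 CPM. Pclaf, a PCNA-binding factor, stood at 1210, 1121 and 1204 CPM, and Birc5, survivin of the chromosomal passenger complex, at 586, 577 and 627 CPM. Ube2c stood at 466, 492 and 527 CPM, and Ccna2, cyclin A2, at 493, 386 and 484 CPM. In the remaining T cells the same genes stood between 0.15 and 14.4 CPM. None of the 6 was past 1.5-fold between a treated pool and saline within the cycling cells.

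Membership ranged from cells at the edge of the rule to cells deep in the cycle. All 6 rule genes were detected in 70 members (42.7%), and 5 or 6 in 96, which were 26 saline, 35 4 h and 35 8 h cells. Another 33 members held 3 or 4, and 35 members (21.3%) just met the rule with 2. The cells with 2 rule genes had a median of 16 molecules of the S-phase and G2/M lists together, neither of which contains a rule gene, while those with 5 or 6 had a median of 227. Just outside the rule were 619 T cells with exactly 1 rule gene, whose median was 8 such molecules and in 60.3% of which that gene was Top2a. At the edge, members with 2 rule genes mostly held Mki67 (74.3%) or Top2a (65.7%), and Ccna2 was detected in 2.86% of them. The rule left out 3 further T cells for a Cd79a molecule.

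Cycling T cells were large libraries. Their median was 8066.5 molecules per cell in the saline pool, 7668 at 4 h and 6879 at 8 h, against 2544, 2519 and 2528 in other T cells. Members with 2 rule genes had a median of 3641 molecules and those with 5 or 6 a median of 9354.5, so the depth of a cell and its rule-gene count moved together. Because a deeper cell shows more genes, shares of cells with a given gene are compared below after each cell was thinned at random to 2000 molecules, which 160 of the 164 members and 12032 other T cells could supply. Among all T cells called as carrying more than 1 tag, which were left out, 13 of 1045 (1.24%, 0.664 to 2.12) met the rule, against 1.07% of the T cells kept. The share of a cell's tag reads that came from its own tag had a median of 99.3% in members and 99.5% in other T cells. Cells above 4 times the median T cell, over 10154 molecules, made up 30.5% of members and 0.0794% of other T cells. Doublets of 2 cells with the same tag cannot be seen in the tag reads, and their part in the results was not tested.

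The share of T cells in cycle was lowest with saline and highest at 4 h. There were 44 cycling cells among 5013 T cells in the saline pool, 0.878% (Clopper-Pearson interval 0.638 to 1.18). At 4 h there were 67 of 5133, 1.31% (1.01 to 1.65), and at 8 h 53 of 5132, 1.03% (0.775 to 1.35). The 3 intervals overlapped. The 4 h share was 1.49 times that of saline, with an exact interval from 1.00 to 2.23, and the 8 h share 1.18 times (0.774 to 1.80). Between the treated pools the 8 h share was 0.791 times the 4 h share (0.541 to 1.15). With the pools as the only replicates, these ratios describe 3 pools and not the drug. Without the cells of over 10154 molecules the shares were 0.600%, 0.959% and 0.685%, in the same order.

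**Figure D1:**
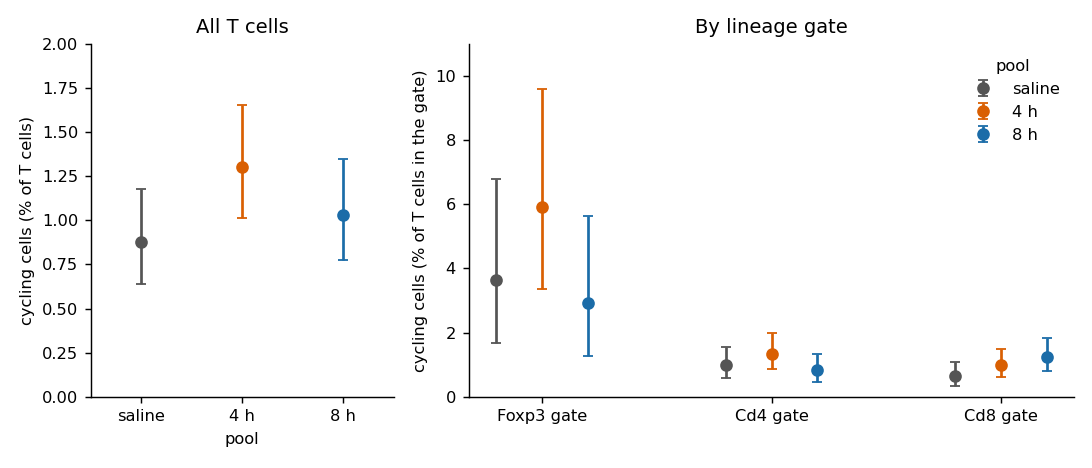
Cycling cells as a percentage of all T cells (left) and of the T cells in each lineage gate (right), by pool; points are shares and bars 95% Clopper-Pearson intervals for counting error. The 3 pools overlap at 0.878%, 1.31% and 1.03%, and the Foxp3 gate lies above the Cd4 and Cd8 gates in every pool.

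Cells with Foxp3 made up a larger share of the cycling cells than of other T cells. Each T cell was assigned to a Foxp3 gate if it held a molecule of Foxp3, the lineage factor of regulatory T cells, and otherwise to the most abundant of Cd4, Cd8 (Cd8a plus Cd8b1, the coreceptor chains) and Trdc, the constant region of the delta T cell receptor. This order of gates was set after a first look at the counts. The Foxp3 gate held 32 of the 164 members, 19.5% (13.7 to 26.4), and 4.92% of other T cells. The Cd4 gate held 58 members (35.4%, against 36.4% of other T cells) and the Cd8 gate 59 (36.0%, against 40.2%). The Trdc gate held 4, 4 were tied and 7 held none of these genes (4.27%, against 14.4%). At 2000 molecules per cell the Cd4 gate held 26.9% of members and 31.9% of other T cells, and the Cd8 gate 33.8% (26.5 to 41.6) and 43.8%. Cells with none of these genes were then 22.5% (16.3 to 29.8) of members and 16.7% of other T cells, the opposite order to that at full depth.

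Seen the other way, 4.12% (2.84 to 5.77) of T cells in the Foxp3 gate were in cycle, against 1.04% (0.793 to 1.35) in the Cd4 gate and 0.961% (0.732 to 1.24) in the Cd8 gate. The Foxp3 share was 3.63% in the saline pool, 5.93% at 4 h and 2.91% at 8 h. Its ratio to the Cd4 gate was 3.71 (1.47 to 8.71), 4.40 (2.15 to 8.74) and 3.52 (1.30 to 8.71) in the 3 pools, above 1 in each. Over all pools the ratio was 3.95 (2.48 to 6.19) at each cell's own depth and 3.69 (2.06 to 6.41) in cells thinned to 2000 molecules. After thinning, a Foxp3 molecule was found in 12.5% (7.81 to 18.6) of members, 3.90% of other T cells and 0.422% of B cells of the same capture, which should lack it. By pool the thinned ratios were 2.79 (0.792 to 8.06), 4.44 (1.83 to 10.1) and 3.77 (1.01 to 12.1), so at equal depth the interval of the saline pool alone includes 1.

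The Cd4 and Cd8 gates were not told apart by these counts. The share of Cd8-gate T cells in cycle was 0.643% (0.343 to 1.10) in the saline pool, 0.987% (0.612 to 1.51) at 4 h and 1.25% (0.813 to 1.85) at 8 h, from 13, 21 and 25 cycling cells. In the Cd4 gate it was 0.977% (0.580 to 1.54), 1.35% (0.865 to 1.997) and 0.827% (0.473 to 1.34). The intervals overlapped between pools in both gates. The ratio of Cd8 to Cd4 shares was 0.658 (0.297 to 1.42), 0.733 (0.388 to 1.37) and 1.52 (0.778 to 3.04), and over all pools 0.921 (0.630 to 1.35), each with an interval that includes 1. A molecule of both Cd4 and a Cd8 chain was found in 30 members (18.3%) and 5.23% of other T cells at their own depth, but in 3.13% and 3.72% after thinning. Genes of developing thymocytes were near 0: Ptcra, the pre-T cell receptor chain, had no molecule, and the thymocyte list summed to 0.702 CPM in members and 5.35 CPM in other T cells.

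At equal depth the cycling cells had the surface genes of antigen-experienced cells more often and those of naive cells less often. None of these genes is in the rule. After thinning, Cd44, the hyaluronan receptor kept high on memory cells, was detected in 31.9% (24.7 to 39.7) of members and 9.28% of other T cells. Icos, a costimulatory receptor, was found in 38.1% against 13.3%, and in 0 of 237 B cells, which allows a share of up to 1.27%. Il2rb, a signalling chain shared by the interleukin-2 and interleukin-15 receptors, was found in 54.4% against 24.5%, and Itgb1, the beta-1 integrin, in 51.9% against 16.5%. Cxcr3, the receptor that guides effector cells to inflamed tissue, was found in 20% against 5.71%. In the other direction Ccr7, a lymph-node homing receptor, was found in 16.2% against 37.3% and Il7r, the interleukin-7 receptor of resting cells, in 24.4% against 63.3%. Markers of very recent stimulation did not follow: Cd69 was found in 9.38% of members and 11% of other T cells, and Myc, the growth factor gene, in 8.75% and 14.1%.

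The same measurement asks how likely a T cell with a given gene was to be in cycle. Among thinned T cells with an S100a4 molecule, a calcium-binding protein gene of memory cells, 39 of 245 were cycling, 15.9% (11.6 to 21.1), against 1.01% of those without one. Gzmb, the cytotoxic protease granzyme B, gave the highest share named here, 11 of 52 or 21.2%, and Gzma 11 of 55 or 20%. Cells with Cd44 were cycling in 4.37% of cases and cells with Icos in 3.67%. With Il7r the share was 0.51% and without it 2.67%. These shares came from few cells per pool and are given over all 3.

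Each cycling cell was placed between S phase and mitosis by its own molecules. The class used the share of its S-phase plus G2/M molecules that were G2/M, with under 33% called mostly S, over 67% mostly G2/M and the rest mixed, and neither list holds a rule gene. There were 51 mostly S cells (31.1%), 50 mixed (30.5%) and 63 mostly G2/M (38.4%). The same cuts put 16.1% of other T cells in mostly S, 48.6% in mixed and 34.5% in mostly G2/M. Other T cells held medians of only 3 S-phase and 4 G2/M molecules, so the class alone does not place a cell near mitosis. Mostly S members held a median of 125 S-phase and 31 G2/M molecules, mixed members 78.5 and 81, and mostly G2/M members 14 and 102. The classes are cuts on a continuous scale, and 30 members lay within 5 percentage points of a cut. Members with few molecules of either list, which gather at the lower left of the plot of single cells, are placed from a handful of molecules.

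The 3 pools had much the same spread over the cycle. Mostly S cells made up 31.8% of members with saline, 31.3% at 4 h and 30.2% at 8 h. Mostly G2/M cells made up 43.2%, 35.8% and 37.7%. At 2000 molecules per cell the 3 classes held 30.6%, 32.5% and 36.2% of members over all pools. Mostly G2/M cells were 46.9% of the Foxp3 gate, 31% of the Cd4 gate and 42.4% of the Cd8 gate, from 32, 58 and 59 cells. A median mostly S cell held 9885 molecules, a mixed cell 8343 and a mostly G2/M cell 6637. By pool the mostly G2/M cells were smaller than the mostly S cells, at 6661, 6679.5 and 5888 against 9301.5, 10054 and 8115. Mixed cells did not lie between them in any pool, at 11428, 6026.5 and 10738.

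**Figure D2:**
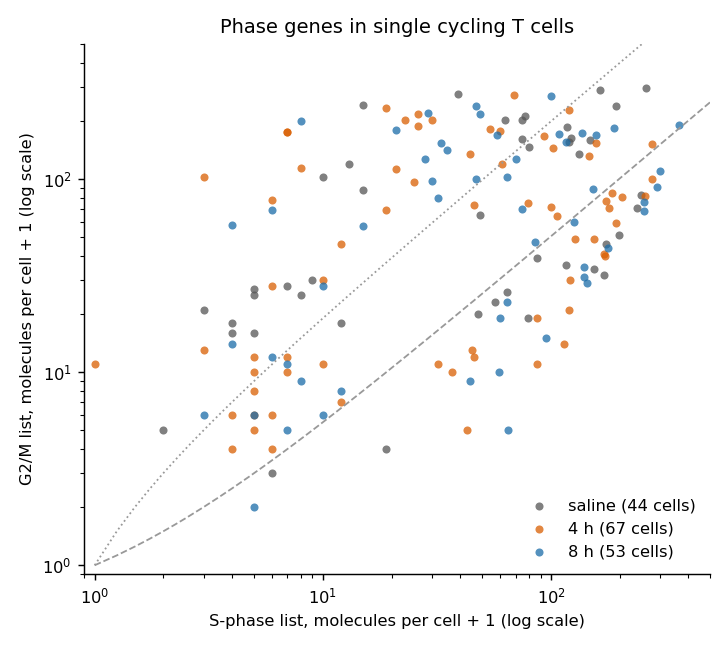
Molecules of the S-phase list (x) and the G2/M list (y) in each of the 164 cycling T cells, plus 1, on log axes; colours are pools, and the dashed and dotted lines are the cuts at 33% and 67% G2/M. Cells of all 3 pools lie in each class, with the mostly S cells below the dashed line and the mostly G2/M cells above the dotted line.

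Levels also differed by class for genes that neither the rule nor the lists used. Cdc25a, the phosphatase that opens S phase, stood at 97.2 CPM in mostly S cells, 57.5 in mixed cells and 7.14 in mostly G2/M cells. Ccnd2, cyclin D2, stood at 742, 389 and 338 CPM, and Cdk4, its kinase, at 254, 226 and 95.3 CPM. Myc stood at 95.3, 51.1 and 16.7 CPM. The growth-entry genes were thus highest in mostly S cells, and the ratio of mostly G2/M to mostly S cells was 0.0735 (0.0147 to 0.227) for Cdc25a and 0.456 (0.374 to 0.553) for Ccnd2. Cdk2 and Ranbp1, a regulator of the nuclear transport GTPase, had ratios of 0.352 and 0.28.

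Chromatin proteins and brakes of the cycle ran the other way. Hmgb2, a DNA-bending chromatin protein, stood at 2282, 3850 and 6395 CPM, a ratio of 2.80 (2.62 to 3), and was the highest in level of the genes named here. H2afx, the histone variant marked at DNA breaks, stood at 97.2, 223 and 531 CPM. Cdkn2d and Cdkn2c, the INK4 inhibitors of CDK4 and CDK6, stood at 43.0, 175 and 288 CPM and at 39.3, 113 and 150 CPM. Cdkn1b, the inhibitor p27, stood at 166, 245 and 436 CPM. All 3 inhibitor genes were therefore higher in mostly G2/M cells than in mostly S cells, with ratios of 6.70 (4.27 to 11), 3.82 (2.30 to 6.60) and 2.62 (2.02 to 3.41), and in each pool on its own. In the pools, Cdkn2d stood at 50.4, 48.9 and 29.2 CPM in mostly S cells and at 217, 213 and 457 CPM in mostly G2/M cells. Of the pocket proteins that hold E2F, Rb1 had a ratio of 0.405 and Rbl2 of 2.74.

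The rule genes themselves did not all mark the same stage. Ube2c ran from 50.5 CPM in mostly S cells to 449 and 1117, a ratio of 22.1 (15.0 to 33.9), in step with the mitotic genes. Mki67 ran from 486 to 1311 and 2167 CPM and Ccna2 from 146 to 496 and 781 CPM. Pclaf stood at 1007, 1490 and 1031 CPM, a ratio of 1.02 (0.900 to 1.16). Of the list genes whose promoters are printed above, Mcm6 stood at 544, 347 and 88.1 CPM and Hells at 383, 217 and 42.9, while Cdk1 stood at 142, 221 and 331, Ccnb2 at 78.5, 213 and 531 and Cdc20 at 18.7, 93.6 and 243. Those 5 belong to the lists that made the classes, so their order is fixed by the choice and is shown only to give their levels.

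**Figure D3:**
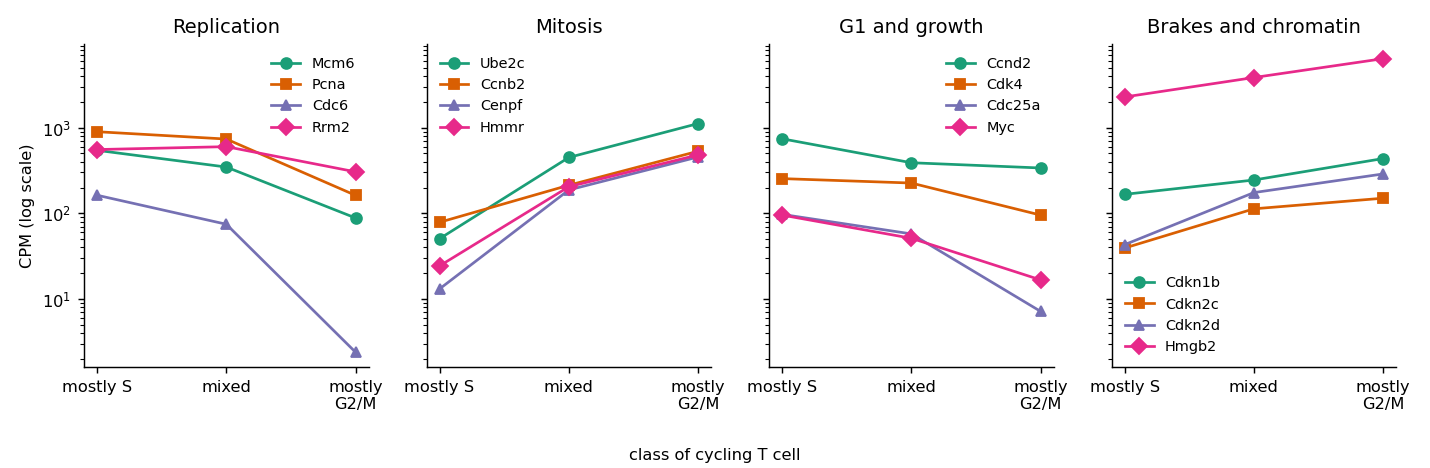
Level in CPM (log axis) of chosen genes in the mostly S, mixed and mostly G2/M classes of cycling T cells, 3 pools summed; each line is 1 gene. The replication and mitosis panels show list genes, whose order the classes fix; in the others, Cdc25a goes from 97.2 to 7.14 and Cdkn2d from 43.0 to 288.

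Set against all other T cells, the cycling cells differed in the machinery of replication and mitosis and also in memory, quiescence and some metabolic genes. This is the contrast the rule was made on, so the counts below are a description and nothing is read from them. A gene counted as higher or lower if its CPM ratio was at least 1.5-fold with an interval that excluded 1 in each of the 3 pools, among genes with 20 or more molecules in the sums compared. Of 10349 genes, 887 were higher (8.57%) and 613 lower (5.92%), and the median ratio was 0.929.

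Of 50 measured G2/M genes, 48 were higher, with a median ratio of 69.0, and of 53 S-phase genes 52 were, with a median of 10.2 (5.8 without the cells of over 10154 molecules). Rrm2, the ribonucleotide reductase subunit that supplies deoxynucleotides, stood at 569, 449 and 491 CPM in the cycling cells of the saline, 4 h and 8 h pools and at 3.29, 5.90 and 4.40 CPM in other T cells. Pcna, the sliding clamp of DNA polymerases, stood at 601, 645 and 629 CPM against 117, 116 and 117, so other T cells also carried it. Hmmr, a spindle protein, stood at 235, 162 and 270 CPM against at most 0.299 CPM. The 2 measured G2/M genes not called higher were common in other T cells too. Pttg1, the separase inhibitor securin, stood at 37.6, 81.1 and 72.2 CPM against 77.5, 79.2 and 76.9, and Smc4, a condensin subunit, at 1571, 1240 and 1557 against 1232, 1201 and 1211. The measured S-phase gene not called higher was Cdt1, and the other 4 G2/M and 2 S-phase genes had too few molecules in at least 1 pool. A gene nearly absent from other T cells reached the count minimum only through the cycling cells, so these counts could hardly come out otherwise. Outside the lists, the genes that stood highest above other T cells were Nek2, Pbk, Kif18b, Pif1, Aspm, Esco2, Stil, Prr11, Depdc1a and Cdkn3. They include mitotic kinases, a motor and a spindle gene. Aspm, a spindle-pole protein, stood at 145, 141 and 113 CPM against 0.598, 0.147 and 0.440.

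Of 25 chromatin and tubulin genes 22 were higher, with a median of 3.71. Stmn1, which destabilises microtubules, stood at 884, 849 and 881 CPM against 32.2, 29.9 and 31.9. Of 10 G1 cyclins, kinases and E2F genes 6 were higher, including Cks1b and E2f2, and Ccnd2 alone was lower, at 373, 568 and 548 CPM against 926, 903 and 919. Cdkn2c was one of 2 inhibitor or pocket-protein genes that were higher, at 113, 88.3 and 91.3 CPM against 5.46, 5.97 and 6.24. Cdkn1b stood at 316, 254 and 255 CPM against 473, 477 and 474 and was not past the fold in all pools. Of the replication-dependent histones only 5 of 23 were measured, and 2 of them were higher.

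**Figure D4:**
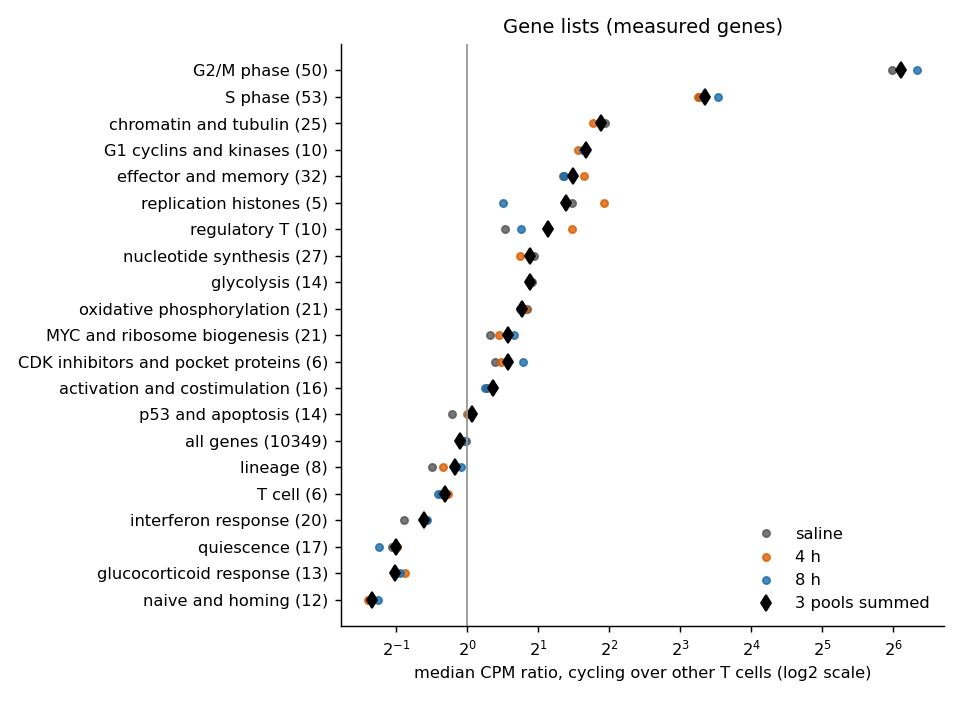
Median CPM ratio of cycling over other T cells for each gene list (measured genes in brackets) on a log2 axis; circles are pools and diamonds the 3 pools summed. G2/M genes stand at 69.0 and S-phase genes at 10.2, while naive and homing genes stand at 0.393.

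About as many metabolic genes passed the fold as did not, and those that passed were all higher. Of 14 glycolysis genes 7 were higher, with a median of 1.84, and Gapdh stood at 1290, 1318 and 1334 CPM against 348, 353 and 367. Ldha, lactate dehydrogenase A, stood at 501, 582 and 584 CPM against 237, 236 and 233. Of 21 nuclear genes of oxidative phosphorylation 11 were higher, with a median of 1.71, and of 27 nucleotide synthesis genes 13, with a median of 1.85. Of 21 MYC and ribosome biogenesis genes 4 were higher (Ncl, Odc1, Eif5a and Hspd1), and Myc itself stood at 55.1, 55.9 and 61.6 CPM against 94.8, 81.9 and 91.3. Without the cells of over 10154 molecules Ncl stood at 0.984 and Hspd1 at 0.943, and of the nucleotide genes Impdh2 at 0.913, Mthfd1 at 0.722 and Ppat at 0.683. The list medians were then 0.799 for MYC and ribosome biogenesis, 1.04 for nucleotide synthesis and 1.38 for glycolysis.

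Effector and memory genes were higher and naive and quiescence genes lower. Of 32 effector and memory genes 18 were higher, with a median of 2.80, and Prf1, perforin, and Cxcr6 were lower. Lgals1, galectin-1, stood at 1087, 1046 and 996 CPM against 118, 121 and 132, and Anxa2, annexin A2, at 351, 382 and 272 against 25.1, 31.0 and 25.4. Of 12 naive and homing genes 10 were lower, with a median of 0.393. Il7r stood at 138, 171 and 170 CPM against 1008, 989 and 1021, and Satb1, a chromatin organiser of naive T cells, at 185, 173 and 172 against 723, 711 and 724. Of 17 quiescence genes 11 were lower, among them Btg1, Foxo1, Foxp1 and Pik3ip1, an inhibitor of PI3 kinase. Outside the lists the lowest included Ly6c1, Socs3, a brake on cytokine signalling, and Ampd1, the AMP deaminase, which had no molecule in the cycling cells of any pool and 14.8 to 15.0 CPM in other T cells.

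Several of the memory and naive genes differed in the same direction inside each lineage gate, and others did not. Lgals1 was 6.44 times as high in cycling as in other cells of the Foxp3 gate, 7.82 times in the Cd4 gate and 8.55 times in the Cd8 gate. S100a6 was 4.09, 7.67 and 12.4 times as high, and Il7r stood at 0.234, 0.143 and 0.150. Satb1 stood at 0.106, 0.196 and 0.369, Lef1, a naive T cell factor, at 0.363, 0.276 and 0.367, and Btg1, an anti-proliferative factor, at 0.279, 0.276 and 0.319. In the Foxp3 gate some memory genes were level or lower in cycling cells: Il2rb stood at 0.883 (0.747 to 1.04) there and at 3.53 in the Cd4 gate, Ahnak, a scaffold protein gene, at 0.739 (0.540 to 0.993) and 2.69, and Ccl5, a chemokine, at 0.169 in the Foxp3 gate and 2.23 in the Cd8 gate. Gzma was mainly a gene of the cycling Cd8 gate, at 630 CPM against 9.16 in other Cd8-gate cells, from 14 cells. Regulatory T cell genes had other ratios from gate to gate. Ikzf2, the transcription factor Helios, stood at 0.975 (0.853 to 1.11) in the Foxp3 gate but at 2.92 and 2.05 in the Cd4 and Cd8 gates, and Ctla4, the inhibitory receptor, at 1.03, 3.96 and 7.09. Of 10 regulatory T genes 4 were higher over all gates, with a median of 2.20, and with other T cells weighted to the gate mix of the members the median was 0.914.

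Survival genes were split. Bak1, which permeabilises mitochondria, stood at 123, 132 and 115 CPM against 55.0, 52.3 and 54.2. Bcl2, which protects mitochondria, stood at 20, 57.7 and 53.1 CPM against 209, 175 and 206, and Bcl2l11, the BIM gene, was also lower. Of 14 p53 and apoptosis genes 2 were higher and 2 lower. Of 13 glucocorticoid-responsive genes 6 were lower and only Fkbp5, a cochaperone of the receptor, was higher. Of 20 interferon genes Ifi27l2a was higher and Ifit1, Ifit3 and Slfn5 were lower. Of 16 activation genes 4 were higher: Icos, Cd44 and the inhibitory receptors Pdcd1 and Tigit.

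Markers of other cell types were found in cycling and in other T cells, higher in the former for some lists and pools. The 11 B cell markers summed to 472 CPM in members and 757 CPM in other T cells, with a molecule in 127 members, and Cd79a (which the rule sets to 0) and Ebf1 had none. Most of that was immunoglobulin message, and Ighm was found in 40% of thinned members and 40.5% of thinned other T cells. Myeloid markers summed to 131 CPM against 116, with Csf1r and C1qa at 0, erythroid markers to 18.2 against 14.4, plasma cell markers to 59.7 against 65.7, progenitor markers to 4.91 against 3.16, natural killer markers to 9.83 against 13.7 and neutrophil markers to 3.51 against 4.76. By pool the B cell markers summed to 596, 416 and 431 CPM in the cycling cells and to 548, 799 and 918 in other T cells. The myeloid markers summed to 118, 144 and 127 CPM against 108, 130 and 110, the erythroid markers to 12.5, 27.0 and 12.7 against 14.5, 14.1 and 14.5, and the progenitor markers to 5.01, 5.41 and 4.25 against 1.57, 4.57 and 3.30. Their part in the results was not tested beyond leaving out cells with such molecules. The T cell receptor and CD3 genes were not past the fold in any direction, 0 of 6, with a median of 0.804.

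Within the cycling cells, few genes differed between the 4 h pool and saline. A gene counted here if its ratio was at least 1.5-fold with an interval that excluded 1, in a single pair of pools. Of 6270 genes 216 were higher (3.44%) and 154 lower (2.46%), with a median ratio of 1.01. The cycle genes themselves were near level: 1 of 53 G2/M genes was higher and 3 lower, with a median of 0.929, and 2 of 53 S-phase genes were higher, with a median of 1.00. Pttg1 was the higher G2/M gene, at 37.6 CPM with saline, 81.1 at 4 h and 72.2 at 8 h. Ttk, the spindle checkpoint kinase MPS1, was the lowest, at 103, 36.1 and 61.6 CPM, a 4 h ratio of 0.351 (0.195 to 0.613), with Aurkb and Bub1b also lower. Cdt1, which loads the helicase, and Ccne2, cyclin E2, were the higher S-phase genes. None of the 25 chromatin and tubulin genes, 16 measured quiescence genes or 6 rule genes was past the fold.

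Of 15 measured activation genes, 5 were higher at 4 h and 0 lower, with a median of 1.38. Icos stood at 208 CPM with saline, 353 at 4 h and 274 at 8 h, and the 4 h ratio was 1.70 (1.31 to 2.22). Tnfrsf4, the costimulatory receptor OX40, stood at 17.5, 75.7 and 25.5 CPM, a ratio of 4.32 (1.92 to 11.4). Nr4a1, an immediate-early nuclear receptor gene, stood at 5.01, 39.7 and 42.5 CPM and was detected in 1, 8 and 6 cells, with 60% of the 8 h molecules in 1 cell. Egr1 stood at 42.6, 99.1 and 168 CPM. Egr2 rested on 1 saline and 5 4 h cells, with a ratio of 27.3, and of 5.97 without the cell that held most molecules in each pool. In other T cells the 4 h ratio was 0.955 for Icos, 1.06 for Tnfrsf4, 0.927 for Nr4a1 and 0.825 for Egr1. Over the 3 pools, other cells of the Foxp3, Cd4 and Cd8 gates stood at 204, 162 and 98.5 CPM for Egr1. For Nr4a1 they stood at 125, 38.6 and 17.9 CPM. The saline cycling cells were thus below other T cells of each of these gates for both genes.

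Regulatory T, effector and lineage genes were also among those higher at 4 h. Of 6 measured lineage genes 3 were higher (Cd8b1, Tcrg-C1 and Tcrg-C2), with a median of 1.41. Foxp3 stood at 87.7 CPM with saline, 166 at 4 h and 70.1 at 8 h, from 9, 15 and 8 cells, and Il2ra, the high-affinity interleukin-2 receptor chain, at 62.6, 180 and 99.8 CPM. The 4 h ratios were 1.89 (1.27 to 2.88) and 2.88 (1.84 to 4.66). Ly6c2, a surface antigen of CD8 memory cells, stood at 80.2, 552 and 588 CPM from 6, 22 and 20 cells, a ratio of 6.88 (4.77 to 10.2). Id2, a regulator of effector fate, stood at 160, 324 and 244 CPM, and Cxcr3 at 90.2, 169 and 149. Ccr2, Klrg1 and Ifng completed the 6 of 28 effector genes that were higher, and for Ifng the ratio was 13.7 with all cells and 2.62 without the top cell of each pool. Klrg1 was 1.92 with all cells and 1.02 with each cell weighted equally, and Ccr2 was 2.49 with all cells and 1.31 without the cells of over 10154 molecules. The 2 lower were Gzma, at 696, 177 and 353 CPM, and Gzmb, at 331, 37.9 and 78.6 CPM, found in 7, 6 and 6 and in 6, 6 and 8 cells. A single saline cell held 71.6% of the Gzma and 81.8% of the Gzmb molecules of its pool. Without the top cell of each pool the 4 h ratios were 0.454 and 0.450 and the 8 h ratios 1.05 and 0.912. In the Cd8 gate Gzma was not past the fold, at 597, 534 and 725 CPM, with ratios of 0.895 (0.654 to 1.23) at 4 h and 1.21 (0.916 to 1.62) at 8 h. Gzmb stood there at 139, 43.6 and 141 CPM, with ratios of 0.314 (0.117 to 0.767) and 1.01 (0.545 to 1.94).

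Outside the lists the 4 h pool had more of Gramd1b, Ccdc66, Kdm6a, Malt1, Arl4c, Dusp5 and Pcm1. Malt1, the paracaspase of antigen receptor signalling, stood at 30.1, 88.3 and 48.8 CPM, a ratio of 2.94 (1.54 to 6.07). Arl4c, a small GTPase, stood at 256, 490 and 495 CPM, a ratio of 1.92 (1.52 to 2.43). Dusp5, a phosphatase of ERK, stood at 30.1, 86.5 and 63.7 CPM. Lower at 4 h were Herpud2, Lpin1, Ap3s2, Mon1b, Gpr174, Cdc5l and Exosc3 beside Ttk. Gpr174, a lysophosphatidylserine receptor gene, stood at 183, 93.7 and 127 CPM, a ratio of 0.513 (0.352 to 0.742). In other T cells the 4 h ratios of these genes other than Id2 and Ttk lay near 1, at 0.992 for Malt1, 1.01 for Arl4c and 0.946 for Gpr174.

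The 8 h pool gave a similar number of differing genes, 186 of 5900 higher (3.15%) and 148 lower (2.51%), with a median of 0.999. It shares the saline cells with the 4 h comparison, so genes past the fold in both are not 2 findings. Of 12 activation genes 3 were higher (Cd27, Nr4a1 and Egr1), and Egr1 had a ratio of 3.94 (2.31 to 7.10). Nr4a1 had a ratio of 8.48 with all cells and 2.27 without the top cell of each pool. Of 27 effector genes 4 were higher (Cxcr3, Id2, Eomes and Ly6c2) and 4 lower (Gzma, Gzmb, S100a4 and S100a6). S100a6 stood at 681 CPM with saline, 535 at 4 h and 314 at 8 h, an 8 h ratio of 0.461 (0.375 to 0.566), and S100a4 at 220, 211 and 93.4 CPM, a ratio of 0.424 (0.288 to 0.616). In other T cells their 8 h ratios were 1.10 and 1.33. Of 6 measured lineage genes 3 were higher at 8 h (Cd8a, Cd8b1 and Trdc), with a median of 1.60. Within the Cd8 gate the 8 h ratios were 1.14 (0.869 to 1.51) for Cd8a and 1.06 (0.846 to 1.35) for Cd8b1. Of 10 measured interferon genes 2 were higher at 8 h and 0 lower, with a median of 1.41. At 4 h 1 of 11 was higher and 0 lower, with a median of 1.62. None of 7 regulatory T genes, 25 chromatin and tubulin genes or 6 rule genes was past the fold at 8 h.

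Among single genes at 8 h, Ufm1, a ubiquitin-like modifier, stood at 20, 61.3 and 70.1 CPM, a ratio of 3.5 (1.58 to 8.76). Gbp4, an interferon-inducible GTPase, stood at 27.6, 55.9 and 78.6 CPM, and Mmd, Vps72, Mrfap1, Pitpnm2, Heca and Arl4c were the others named as highest. Tesc, a calcium-binding regulator gene, was the lowest, at 105, 55.9 and 23.4 CPM, a ratio of 0.222 (0.103 to 0.439). Polq, the DNA polymerase theta of end joining, stood at 47.6, 25.2 and 10.6 CPM, and Zfc3h1, Zfp367, Srp9 and Ip6k2 were also lower. Bcl2 was past the fold at both times, with ratios of 2.88 (1.30 to 7.23) and 2.65 (1.16 to 6.80), and stood below other T cells in every pool. Cdkn2d was higher at 8 h, at 115, 155 and 200 CPM, a ratio of 1.73 (1.21 to 2.52). Fkbp5, the only glucocorticoid-responsive gene past the fold at 4 h, was lower there, at 120, 57.7 and 117 CPM.

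Some of these ratios leaned on the deepest cells. Of 56 genes named or listed that were past the fold at 4 h, 38 stayed past 1.5-fold under every alternative run, and at 8 h 27 of 47 did. Without the cells of over 10154 molecules, the 4 h ratios of Foxp3, Icos, Cxcr3, Ccnd2, Pttg1 and Trbc1 were 1.47, 1.46, 1.41, 1.27, 1.26 and 1.40, and the 8 h ratio of Bcl2 was 1.27. Ly6c2 at 4 h was 3.02 without those cells and 10.9 without the cell with most Ly6c2 in each pool, and Il2ra was 6.28 without the deep cells. Malt1 was 1.82 and Tesc at 8 h 0.475 without them. Arl4c ranged from 1.82 to 2.10 at 4 h and Icos, Arl4c and S100a4 kept their side of 1 throughout. Within gates, the 4 h ratio of Arl4c was 2.68 (1.85 to 3.98) in the Cd8 gate. In the Cd4 and Foxp3 gates together it was 1.27 (0.917 to 1.76), not past the fold. At 8 h these ratios were 1.58 (1.07 to 2.38) and 1.87 (1.34 to 2.62).

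**Figure D5:**
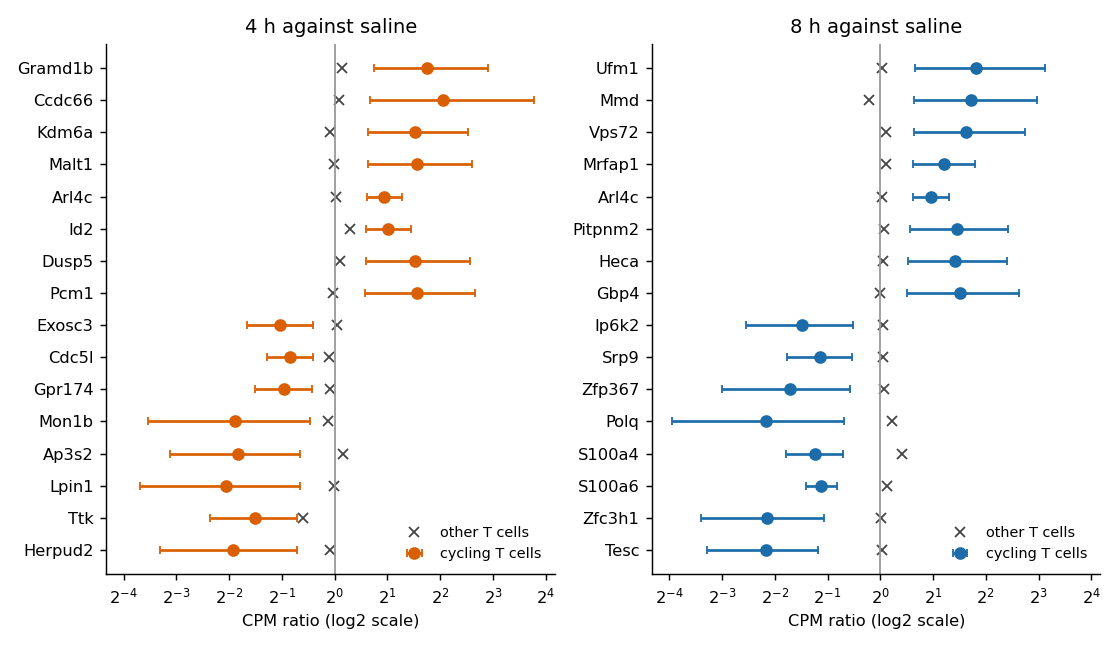
CPM ratio to saline within cycling T cells (circles, with 95% intervals for counting error) and in other T cells (crosses), on log2 axes, for the 8 highest and 8 lowest genes at 4 h (left) and 8 h (right). In other T cells nearly all crosses lie close to 1, as for Arl4c at 1.01 and 1.03, while Ttk at 4 h is below 1 in both.

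The mix of gates differed between pools, so the treated pools were also read within gates, a split chosen after the counts were seen. There were 27, 39 and 24 cycling cells in the Cd4 and Foxp3 gates together and 13, 21 and 25 in the Cd8 gate. Il2ra belonged to the former, at 99.3, 302 and 188 CPM, and Icos stood there at 274, 465 and 412 CPM. Ccnd2, which over all cycling cells stood at 373, 568 and 548 CPM, stood at 326, 708 and 606 in the Cd4 and Foxp3 gates and at 474, 376 and 483 in the Cd8 gate. Its 4 h ratios of 2.17 (1.68 to 2.83) and 0.793 (0.551 to 1.14) have intervals that do not overlap, but these intervals count molecules from few cells. Ccnd2 also differed by phase class. The phase mix over all members was much the same in the pools, and within gates it rested on few cells with overlapping intervals. Mostly S cells were 6 of 13 in the Cd8 gate with saline (46.2%, 19.2 to 74.9) and 7 of 21 at 4 h (33.3%, 14.6 to 57.0). They were 5 of 18 (27.8%) and 9 of 24 (37.5%) in the Cd4 gate. In the Foxp3 gate they were 1 of 9 (11.1%) and 3 of 15 (20%). The part of phase in the Ccnd2 ratios was not tested.

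Ly6c2 was mainly a Cd8-gate gene and was higher there too, at 262, 1368 and 944 CPM. The lower S100a6 of the 8 h pool was seen in the Cd8 gate, at 491, 360 and 158 CPM, with an 8 h ratio of 0.322 (0.207 to 0.495). In the Cd4 and Foxp3 gates it stood at 695, 658 and 555 CPM, a ratio of 0.799 (0.623 to 1.02). Gpr174 was lower in the Cd8 gate at both times, at 262, 92.7 and 101 CPM. In the Cd4 and Foxp3 gates it stood at 151, 86.2 and 173 CPM. It was lower there at 4 h, with a ratio of 0.571 (0.338 to 0.955), but not at 8 h, at 1.15 (0.701 to 1.87). Trbc1, 1 of the alternative constant regions of the T cell receptor beta chain, stood at 180, 856 and 334 CPM in the Cd8 gate and at 576, 674 and 682 in the Cd4 and Foxp3 gates. Each T cell clone uses 1 of the alternatives, so this value depends on which clones were among 13, 21 and 25 cells. Cells of 1 pool that descend from 1 division cannot be told apart from unrelated cells here.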

How the data were processed

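The measurement was single-cell RNA-seq of splenic T cells (BD Rhapsody whole-transcriptome and sample-tag libraries of 1 capture). Per the file headers, the authors' deposited tables hold counts of unique molecules per gene and cell, made with the BD Rhapsody WTA Multiplex pipeline 1.9.1 (aligner not given in the sources used here) on GRCm38 with GENCODE M19 and corrected for sequencing errors, and the deposited calls name 1 tag for each cell. The deposited description assigns tag 8 to saline, 10 to 4 h and 9 to 8 h. Of 17299 putative cells, 16174 had a single tag in use, and 1063 multiplets were left out. No 2 cells shared a barcode. After the filters 16123 cells remained, of which 15278 were T cells. The members, gene lists and comparisons were chosen with earlier results of these data known. Molecules were summed over cells of a pool and class and scaled to a common total (CPM), with members of 399211, 554735 and 470842 molecules in the saline, 4 h and 8 h pools. Shares carry Clopper-Pearson intervals and ratios exact conditional-binomial intervals (scipy 1.17.1), and a ratio against 0 molecules used a floor of 3. Coverage of the ratio intervals was checked only on simulated molecules drawn independently of one another. Real molecules of a gene can gather in single cells, so that check does not give the coverage in these data. No test was run, since each treatment is 1 pool. Genes named were the rule genes, the 5 most abundant of each list, the 10 highest and lowest outside the lists against other T cells and the 8 highest and lowest per treatment, by the interval bound nearest to 1. Treatment genes of which 1 cell held over 25% of the molecules of a pool were left out of that ranking. Other list genes were named after their values were seen, mostly for passing the fold. Alternatives were stricter rules and cell filters, a cap on molecules, raw molecules, thinning, other count minimums and folds, edgeR 4.0.16 TMM scaling, equal weight per cell and a matched gate mix. Promoters came from RefSeq on GRCm38.p6. Some genes are not reported here.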

Additional observations from a re-analysis of the deposited data

Results flagged for a closer look

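Among T cells that the deposited calls marked as carrying more than 1 sample tag, which no comparison uses, 13 met the rule for cycling cells. They were 1.24% (0.664 to 2.12) of 1045 such cells, with a median of 4493 molecules.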

How the results depend on the processing

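The share ratios of the treated pools to saline kept their direction and moved by less than their intervals under every alternative run. The ratio of the 8 h to the 4 h share was not run under the alternatives. Without cells above 4 times the median molecules, the shares were 0.600% (saline), 0.959% (4 h) and 0.685% (8 h), mostly G2/M cells made up 49.1%, and against other T cells 504 genes were higher and 235 lower, with 119 higher at 4 h. With 3 of the 6 rule genes required, the 4 h share was 0.994%. In thinned cells the Foxp3 gate held 12.5% and the Cd4 gate 26.9% of members. With a fold of 2, 552 genes were higher and 295 lower against other T cells, 129 higher and 81 lower at 4 h, and 107 higher and 80 lower at 8 h. With a minimum of 50 molecules, 118 were higher and 69 lower at 4 h, and 99 higher and 73 lower at 8 h; fewer genes are then tested. Some values changed side of 1, and the cause was not tested. Against other T cells, the regulatory T median was 0.914 with the matched gate mix. The B cell median was 1.20 and Igkc 1.28 without cells holding molecules of other cell types. Under the cap on molecules Hspd1 was 0.943, Impdh2 0.913, Mthfd1 0.722, Ncl 0.984 and Ppat 0.683. The thymocyte median was 1.02 under that cap, but it rests on 1 measured gene with 1 molecule in all members. A count of 0 there takes the floor of 3, so that value does not show a higher level. Under the same cap, at 4 h Cdc25a was 1.57, Nhp2 1.88, Stil 1.10 and Tesc 1.36, and at 8 h Exosc3 was 1.06 and Hist1h4i 0.95. At 8 h Ccr9 was 0.456 without cells holding molecules of other cell types and Gzma 1.05 without the top cell of each pool. No paired analysis was possible because each treatment is a single pool. With 44 to 67 members per pool, 6270 genes at 4 h and 5900 at 8 h reached the count minimum, of 19837 in the table, and genes below it were not comparable at this depth.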
